A study of Mus musculus with 4 samples.

Results

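The genes described here are 10 genes of milk and of prolactin signalling, read by symbol from a deposited RNA-seq table of 23951 rows besides spike-ins: the caseins Csn1s1, Csn1s2a, Csn1s2b, Csn2 and Csn3, the whey proteins Wap and Lalba, the prolactin receptor Prlr, the transcription factor Stat5a, and Cish, a Stat5 target. All 10 had a row, and 9 reached 1 FPKM in at least 2 of the 4 libraries and were tested; Csn1s2b did not. FPKM are reads or fragments scaled to gene length and library size. The libraries came from female MMTV-PyMT mice, whose mammary epithelium expresses the polyoma middle T oncogene from the mouse mammary tumor virus promoter. All mice carried the R26Y reporter, which turns on yellow fluorescent protein (YFP) once Cre has acted, and all received Ad-K8-Cre, an adenovirus that expresses Cre from the Krt8 promoter of luminal cells, into the ducts. YFP+ tumor cells were sorted 2 to 3 months later. The study design gives the control mice as Lsd1+/+ and the experimental mice as Lsd1L/L, with conditional alleles of Lsd1, the histone demethylase gene Kdm1a. There were 2 libraries per group, wild-type and knockout by title. For both samples titled knockout the tissue label also reads Lsd1+/+, so they are called the knockout-labelled pair. The labels give neither the age nor the reproductive state of the mice, nor whether the 2 libraries of a group stem from different animals; the p-values therefore reflect library-to-library spread, which may be technical.

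Prolactin binds its receptor on mammary luminal cells and activates the kinase Jak2, which phosphorylates Stat5a and Stat5b; these enter the nucleus and switch on milk genes. Caseins and whey proteins are the secretory products of the alveolar cells of pregnancy and lactation, and Cish and the Socs proteins are induced by cytokine signals and feed back to dampen them. Stat5 is also activated by interleukins in lymphocytes, where it induces Cish.

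The letters that Stat5 dimers prefer, TTCNNNGAA, read the same on both strands. They were searched in the promoters of RefSeq (GRCm38.p6, a later build than the mm9 of the deposited values), each spanning 250 bases before to 50 bases after a transcription start. Of the 10 genes, 8 had at least 1 such promoter (all but Csn1s2b and Csn3), and 5 of these 8 held the letters in at least 1, against 9.55% of all 27025 genes and 8.30% of all 32851 promoters. Csn1s1 (chr5:87665958-87666257, plus strand) held 1 match, first base at -100 from the start. Csn2 (chr5:87699376-87699675, minus strand) held 1 at -93, and Csn1s2a (chr5:87774200-87774499, plus strand) held 1 within the transcript, at 21. Cish (chr9:107296409-107296708, plus strand) held 2, at 1 and 12; 0.457% of all promoters held at least 2. Lalba (chr15:98482634-98482933, minus strand) and Wap (chr11:6638600-6638899, minus strand) held none in this window, nor did both promoters of Stat5a, while 1 of 3 Prlr promoters did. In the levels given below, Csn1s1, Csn2, Csn1s2a and Cish, with a match, were higher in the knockout-labelled pair, and Prlr, with a match, was lower. Of the genes without a match, Stat5a was higher, and Lalba and Wap were lower in the mean. The differences of Csn1s1, Csn1s2a and Wap did not pass. A link between the letters and the direction was not tested. The promoters of 4 genes with the letters and of both whey genes without them are shown so that the matches, in capitals, can be seen in place.
Csn1s1: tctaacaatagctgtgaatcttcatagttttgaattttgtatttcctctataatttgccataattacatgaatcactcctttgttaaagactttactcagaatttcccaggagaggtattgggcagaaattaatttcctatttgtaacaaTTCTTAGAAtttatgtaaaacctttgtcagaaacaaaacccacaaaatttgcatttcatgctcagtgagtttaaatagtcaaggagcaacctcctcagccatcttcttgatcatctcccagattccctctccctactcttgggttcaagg
Csn2: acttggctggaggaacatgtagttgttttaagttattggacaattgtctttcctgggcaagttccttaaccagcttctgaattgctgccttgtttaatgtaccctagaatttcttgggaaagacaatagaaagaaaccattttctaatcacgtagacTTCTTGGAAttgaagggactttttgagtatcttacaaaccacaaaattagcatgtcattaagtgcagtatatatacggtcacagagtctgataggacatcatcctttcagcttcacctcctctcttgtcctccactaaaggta
Csn1s2a: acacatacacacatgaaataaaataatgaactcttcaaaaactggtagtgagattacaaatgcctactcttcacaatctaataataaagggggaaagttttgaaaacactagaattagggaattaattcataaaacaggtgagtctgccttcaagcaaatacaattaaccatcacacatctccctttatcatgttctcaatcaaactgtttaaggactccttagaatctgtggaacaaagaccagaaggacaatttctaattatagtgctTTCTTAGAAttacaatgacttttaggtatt
Cish: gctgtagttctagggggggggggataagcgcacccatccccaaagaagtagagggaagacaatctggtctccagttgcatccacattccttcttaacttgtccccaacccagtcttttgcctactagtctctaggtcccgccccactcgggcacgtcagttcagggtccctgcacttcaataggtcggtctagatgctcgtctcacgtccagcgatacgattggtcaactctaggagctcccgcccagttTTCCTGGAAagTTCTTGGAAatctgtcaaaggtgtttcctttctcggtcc
Lalba: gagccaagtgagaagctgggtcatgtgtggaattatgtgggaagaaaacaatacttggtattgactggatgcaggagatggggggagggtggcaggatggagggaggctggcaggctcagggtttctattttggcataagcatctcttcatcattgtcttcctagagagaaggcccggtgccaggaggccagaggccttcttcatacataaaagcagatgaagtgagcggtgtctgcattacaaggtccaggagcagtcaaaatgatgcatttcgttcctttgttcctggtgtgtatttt
Wap: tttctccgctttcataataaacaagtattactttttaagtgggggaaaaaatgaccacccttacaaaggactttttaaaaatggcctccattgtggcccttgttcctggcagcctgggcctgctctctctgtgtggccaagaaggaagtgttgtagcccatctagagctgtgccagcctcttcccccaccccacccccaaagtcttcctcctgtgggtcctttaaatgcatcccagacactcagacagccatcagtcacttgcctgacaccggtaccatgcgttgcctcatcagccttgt
A match is a stretch of letters and not a measured binding site.

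The deposited values summed to between 401786 and 449838 per library, and relative read depth, from the steps of the lowest values, put the other libraries at 0.85 to 1.03 times the second knockout-labelled library. The wild-type pair was less alike (Pearson r = 0.85 across genes on the log2(FPKM + 1) scale) than the knockout-labelled pair (r = 0.98). Kdm1a was at 52.5 and 22.9 FPKM in the wild-type pair and at 20.2 and 22.8 FPKM in the knockout-labelled pair, so the gene-level value did not separate the groups beyond their spread (limma, adjusted p = 0.34). The defining epithelial genes were present in all libraries, but unevenly: the geometric mean of 11 epithelial genes (such as Epcam, Cdh1 and Krt7) was 350 and 83.3 FPKM in the wild-type pair and 21.5 and 21.9 FPKM in the knockout-labelled pair. All 11 were below wild-type without overlap, where 32.1% of all tested genes were. Of the 11, 1 passed as lower (9.09%, against 6.99% of all tested genes) and 10 did not pass. Lymphocyte markers went the other way. All 16 of 16 measured genes of that list were higher in the knockout-labelled pair, where they summed to 2616 and 2457 FPKM against 24.2 and 155 FPKM in wild-type, and none was at 0. Neutrophil markers summed to 259 and 537 FPKM in wild-type and to 1118 and 1201 FPKM in the knockout-labelled pair. Of these, 6 of 7 did not overlap and were above, the untested Elane included, where 39.3% of all tested genes did so. Of the 5 tested, 3 passed as higher, against 9.51% of all tested genes. Mmp8, among the 3, entered the test only through the knockout-labelled pair. Of that list Elane was at 0 in wild-type and 0.16 FPKM at most, and Mpo was at 0 in all libraries but the first knockout-labelled one (0.48 FPKM). Macrophage markers summed to 405, 13708, 1091 and 1014 FPKM in the same order. Adipocyte genes Plin1 and Lep were listed at 0 in every library, with Adipoq at 0.80 FPKM at most. In bulk RNA, fewer cells of a type and less RNA per cell cannot be told apart. The part of these other cells in the results on milk and prolactin genes was not tested.

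Of the 9 tested genes, Csn2, Stat5a and Cish rose in the knockout-labelled pair, Lalba and Prlr fell, and Csn1s1, Csn1s2a, Csn3 and Wap did not pass an adjusted p of 0.05 (limma on log2(FPKM + 1)). Both falls turned to differences near 0 when each library was scaled to its epithelial genes (0.28 for Lalba and 0.19 for Prlr). The median of all tested genes was 2.43 under that scaling. Without it, 16.5% of all 11138 genes tested passed in either direction, 9.51% higher and 6.99% lower. The median difference of the 9 genes was 1.09, against 0.082 over all tested genes. The groups did not overlap in 9 of the 10 genes, with 5 above and 4 below wild-type, the untested Csn1s2b among the 4. Among all tested genes 39.3% did not overlap and were above, and 32.1% below, 71.4% in all. All 5 calls ended without either knockout-labelled library (limma, adjusted p = 0.36 to 0.41, and 0 calls over all genes, with 1385 and 1346 genes at an unadjusted p under 0.05). Without the first or second wild-type library 7 and 9 of the 9 passed, against 69.3% and 71.0% of all tested genes, in fits whose spread came from the knockout-labelled pair alone. With no filter on low values none of the 10 passed (7 at an unadjusted p under 0.05), and 2 genes did in all.

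**Figure D1:**
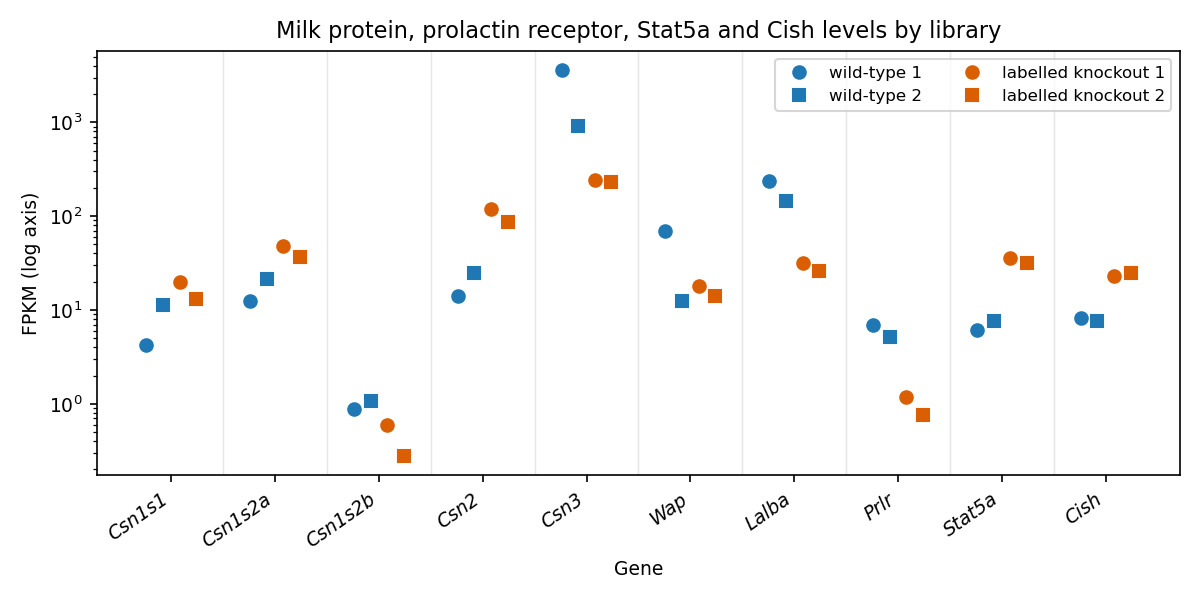
FPKM on a log axis of the 10 genes in each library, with circles for replicate 1 and squares for replicate 2, wild-type in blue and labelled knockout in orange. Csn3 spans 3602 to 229 FPKM, Csn2 and Stat5a are above wild-type in both knockout-labelled libraries, and Wap overlaps between the groups; with libraries scaled to epithelial genes the differences of Csn3, Lalba, Prlr and Wap change sign.

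Csn2 encodes beta-casein, a main casein of mouse milk, and its promoter holds the Stat5 letters shown above. It stood at 14.2 and 24.9 FPKM in the wild-type pair and at 118 and 85.6 FPKM in the knockout-labelled pair. Both knockout-labelled libraries were thus above both of wild-type, by 5.21-fold in the mean. On the log2(FPKM + 1) scale Csn2 rose by 2.36 (SE 0.36, n = 2 and 2; limma, adjusted p = 0.036), and leaving out 1 library moved the difference between 1.97 and 2.74, with the call ending without either knockout-labelled library (adjusted p = 0.39 and 0.37). Csn1s2a, an alpha-s2 casein, was at 12.3 and 21.1 FPKM against 48.0 and 36.4 FPKM. Its groups did not overlap either, but the difference of 1.32 (SE 0.34) did not pass (limma, adjusted p = 0.076). Csn1s1, the alpha-s1 casein that assists the export of other caseins, was at 4.21 and 11.4 FPKM against 19.9 and 13.0 FPKM. The second wild-type library nearly reached the second knockout-labelled library, and the difference was 1.09 (SE 0.53; limma, adjusted p = 0.21), 0.47 without wild-type library 1 and 1.72 without wild-type library 2.

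These 3 caseins were also ordered alike within each pair. In the second wild-type library Csn1s1 was 2.70-fold, Csn2 1.76-fold and Csn1s2a 1.71-fold above the first. In the first knockout-labelled library they were 1.53-fold, 1.38-fold and 1.32-fold above the second. The median gene differed by 1.53-fold between the wild-type libraries and by 1.11-fold between those labelled knockout. The lymphocyte markers stood in the same order in both pairs, at 24.2 and 155 FPKM and at 2616 and 2457 FPKM. The macrophage markers did so too (405 and 13708 FPKM, and 1091 and 1014 FPKM). So did fibroblast markers (253 and 624 FPKM, and 210.8 and 209.3 FPKM). Endothelial markers also kept this order (30.2 and 173 FPKM, and 21.9 and 21.2 FPKM). Neutrophil, adipocyte, epithelial and basal epithelial markers did not keep it in both pairs. The part of any of these cells in the casein order was not tested. The ratio of Csn2 to Csn1s2a was 1.15 and 1.18 in the wild-type pair and 2.46 and 2.35 in the knockout-labelled pair, so the pair of genes did not keep 1 ratio across the groups. Csn2 to Csn1s1 was 3.37 and 2.19 against 5.93 and 6.58.

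Csn1s2b, the other alpha-s2 casein, lies next to Csn1s2a and stayed near the floor of the table. It was at 0.879 and 1.06 FPKM in the wild-type pair and at 0.598 and 0.278 FPKM in the knockout-labelled pair. It was thus lower in the knockout-labelled pair, against the order of its neighbour, but at too low a level to enter the test, and relative to the epithelial genes of each library it was at 0.00251 and 0.0127 against 0.0279 and 0.0127. The transcripts of the 2 genes in GENCODE M21 share no stretch of 50 bases with each other or with any other gene, so such reads would not be split between them.

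Csn3 encodes kappa-casein, which sits on the surface of the casein micelle and keeps it in solution. It was the highest of the 10 genes in every library, at 3602 and 913 FPKM in the wild-type pair and at 245 and 229 FPKM in the knockout-labelled pair. The wild-type libraries differed from each other by 3.95-fold, while those labelled knockout nearly coincided. The difference of -2.93 (SE 0.72) did not pass (limma, adjusted p = 0.068); it was -1.94 without the first wild-type library, -3.92 without the second, and 0.039 with libraries scaled to the epithelial genes. Csn3 closes the casein cluster on chromosome 5, where RefSeq lists Csn1s1, Csn2, Csn1s2a, Csn1s2b, Prr27, Odam, BC037156 and Csn3 in that order. Prr27 was listed at 0 in all libraries. Odam, an epithelial protein of teeth and glands, was at 1.25 and 0.55 FPKM in the wild-type pair and listed at 0 in both knockout-labelled libraries. Along this cluster the first 3 caseins were thus higher, and Csn1s2b, Odam and Csn3 lower, in the deposited values of the knockout-labelled pair, but Csn3 was not lower with the epithelial scaling.

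Lalba encodes alpha-lactalbumin, the subunit that turns galactosyltransferase into lactose synthase. It was at 238 and 146 FPKM in the wild-type pair and at 32.0 and 26.2 FPKM in the knockout-labelled pair. The wild-type libraries were both well above the others, by 6.61-fold in the mean. Lalba fell by 2.65 on the log2(FPKM + 1) scale (SE 0.31; limma, adjusted p = 0.028), with a range of -3.00 to -2.30 on leaving out 1 library, a call that ended without either knockout-labelled library (adjusted p = 0.36 in both) and a difference of 0.28 with the epithelial scaling. B4galt1, the galactosyltransferase that alpha-lactalbumin joins, was at 10.2 and 7.29 against 10.5 and 11.6 FPKM (limma, adjusted p = 0.39, and 0.011 without the first wild-type library; named after its values were seen). Wap, whey acidic protein, was at 68.6 and 12.5 FPKM in the wild-type pair and at 18.2 and 14.1 FPKM in the knockout-labelled pair. Only the first wild-type library stood out, and the other 3 lay close together. The difference was -0.85 (SE 0.88; limma, adjusted p = 0.51), -2.03 without the second wild-type library, 0.33 without the first and 2.01 with the epithelial scaling.

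The make-up of the milk protein transcripts lay apart between the groups in these 4 libraries. The 7 genes summed to 3941 and 1130 FPKM in the wild-type pair and to 482 and 404 FPKM in the knockout-labelled pair. Csn3 made up 91.4% and 80.8% of the sum in the wild-type pair and 50.9% and 56.6% in the knockout-labelled pair. Csn1s1, Csn2 and Csn1s2a together made up 0.779% and 5.08% against 38.6% and 33.4%. The share of Lalba was 6.05% and 12.9% against 6.64% and 6.49%, so its groups lay close although its level did not. In FPKM, which is per length, Csn3 exceeded Csn2 by 254-fold and 36.7-fold in the wild-type pair and by 2.08-fold and 2.67-fold in the knockout-labelled pair.

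**Figure D2:**
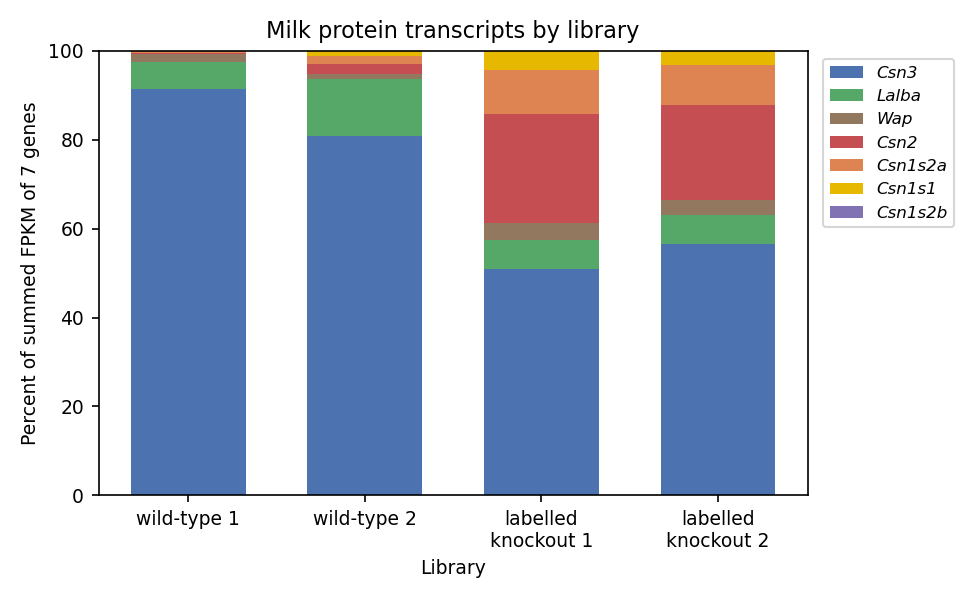
Stacked bars give, for each library, the percent of the summed FPKM of the 7 casein and whey genes that each gene holds. Csn3 fills 91.4% and 80.8% of the wild-type bars, and Csn2 takes 24.5% and 21.2% of the bars of the knockout-labelled libraries against 0.359% and 2.20% in wild-type.

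The order of levels changed accordingly. In wild-type it ran Csn3, Lalba, Wap, Csn2, Csn1s2a, Cish, Csn1s1, Stat5a, Prlr and Csn1s2b. Csn3 and Lalba were each apart from the next gene, whereas Wap, Csn2 and Csn1s2a overlapped, as did Cish, Csn1s1 and Stat5a; Prlr overlapped Stat5a, and Csn1s2b lay below the rest. In the knockout-labelled libraries it ran Csn3, Csn2, Csn1s2a, Stat5a, Lalba, Cish, Csn1s1, Wap, Prlr and Csn1s2b. There the values of Stat5a and Lalba overlapped, as did those of Csn1s1 and Wap, and the other neighbours did not.

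Prlr, the receptor at the head of the pathway, was at 6.91 and 5.10 FPKM in the wild-type pair and at 1.18 and 0.754 FPKM in the knockout-labelled pair. Both knockout-labelled libraries were thus close to the filter of 1 FPKM. On the log2(FPKM + 1) scale, which understates changes at such levels, Prlr fell by 1.83 (SE 0.27; limma, adjusted p = 0.034), ranging from -2.02 to -1.64 on leaving out 1 library, with a difference of 0.19 under the epithelial scaling. Stat5a, the factor downstream, moved the other way, from 6.15 and 7.59 FPKM to 35.9 and 31.7 FPKM. The values within each pair were close, and the pairs were 4.92-fold apart. Stat5a rose by 2.15 (SE 0.21; limma, adjusted p = 0.024). Cish, the feedback inhibitor whose promoter holds 2 copies of the Stat5 letters, was at 8.15 and 7.69 FPKM in the wild-type pair and at 23.2 and 24.8 FPKM in the knockout-labelled pair. It was the steadiest of the 10 within pairs and rose by 1.49 (SE 0.19; limma, adjusted p = 0.030). The 3 calls ended without either knockout-labelled library (adjusted p = 0.37 to 0.41). The ratio of Stat5a to Prlr was 0.89 and 1.49 in the wild-type pair and 30.4 and 42.1 in the knockout-labelled pair. The lymphocyte and neutrophil markers were in sum also higher in the knockout-labelled pair, where 39.3% of all tested genes were above wild-type without overlap. The epithelial genes were lower there, where 32.1% of all tested genes were below without overlap. The part of these cells in the differences of Stat5a, Cish and Prlr was not tested.

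Stat5b, the near copy of Stat5a, rose alongside it, from 6.22 and 6.46 FPKM to 33.1 and 35.3 FPKM (2.26, SE 0.19; limma, adjusted p = 0.024). The ratio of Stat5a to Stat5b stayed between 0.90 and 1.17 in the 4 libraries. In GENCODE M21, 8.21% of the 50-base stretches of Stat5a also occur in Stat5b, so reads from these could be split between the 2 genes, and the split of their levels is uncertain to that extent. Of the Cish stretches 9.48% also occur in other genes, with 5.89% in Gm17041, an entry of the annotation. The Csn1s1, Wap and Lalba transcripts share none with other genes, while those of Csn2, Csn3 and Prlr share 0.0676%, 1.92% and 1.07%.

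Each gene was then set against the epithelial genes of its own library, as the ratio of its FPKM to their geometric mean. This ratio was 10.3 and 10.95 for Csn3 in the wild-type pair and 11.4 and 10.4 in the knockout-labelled pair. Across all 4 libraries it varied by 1.11-fold, while the Csn3 level itself went from 3602 to 229 FPKM. Of the 11138 tested genes, 4 varied by no more than that (0.0359%), Csn3 included. Krt18, also among the 4 (1.08-fold), is itself 1 of the 11 genes that form the mean. The ratio was computed for all members without a threshold, and this count is a description. For Lalba the ratio was 0.681 and 1.76 against 1.49 and 1.20, and for Prlr 0.0198 and 0.0612 against 0.0550 and 0.0345. In both genes the knockout-labelled libraries lay between the wild-type libraries. Ranges as narrow as those of Lalba and Prlr were held by 3.64% and 5.05% of tested genes.

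The other caseins and the Stat5 genes stood elsewhere on this ratio. Csn2 was at 0.0405 and 0.298 in the wild-type pair and at 5.49 and 3.91 in the knockout-labelled pair. Stat5a was at 0.0176 and 0.0910 against 1.67 and 1.45, and Cish at 0.0233 and 0.0923 against 1.08 and 1.13. Within the wild-type pair these ratios were higher in the second library, where the epithelial mean they are divided by was lower (350 and 83.3 FPKM). In FPKM, Csn2 and Stat5a were also higher there, but Cish was not (8.15 and 7.69 FPKM). With all libraries scaled to the epithelial genes, Csn1s1, Csn1s2a, Csn2, Stat5a and Cish passed with the knockout-labelled libraries higher (differences of 3.52 to 5.12; limma, adjusted p = 0.0012 or lower). That scaling moved the median of all genes from 0.082 to 2.43 and called 74.5% of them, 74.3% higher and 0.144% lower, so 5 of 9 is no more than the share over all genes.

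**Figure D3:**
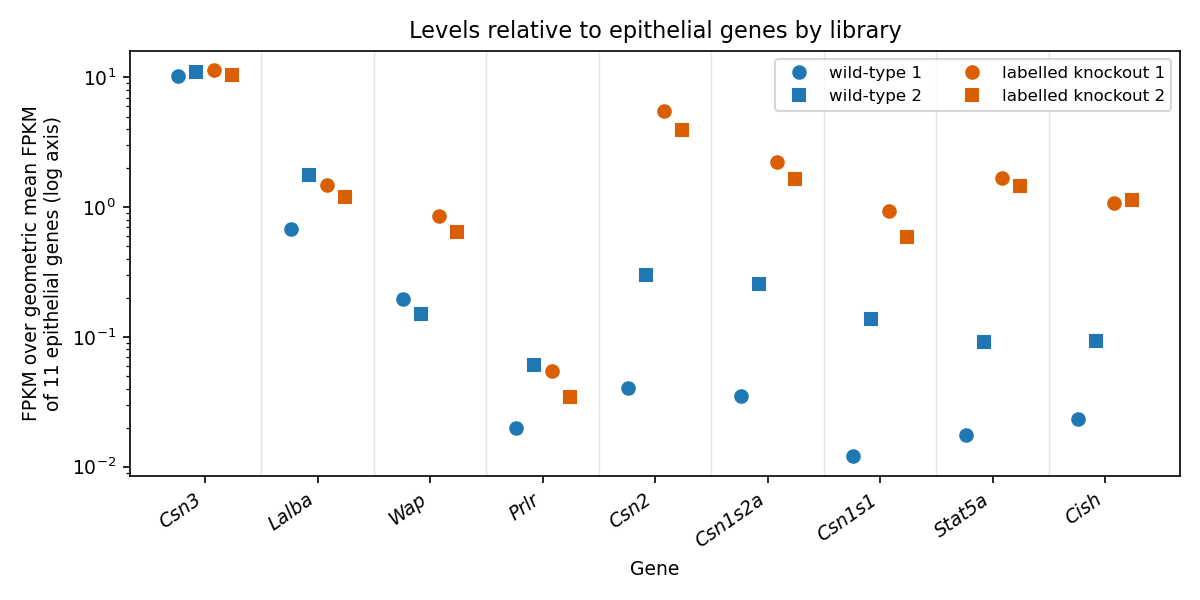
Ratio of each gene's FPKM to the geometric mean FPKM of 11 epithelial genes in the same library, on a log axis, with colours for the group and markers for the replicate. The 4 values of Csn3 lie between 10.3 and 11.4, and those of Csn2 run from 0.0405 to 5.49.

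The rest of the pathway was read from a list of 30 genes outside the 10, of which 24 were tested. Of these 5 rose, 9 fell and 10 did not pass, with a median difference of -0.067 against 0.082 over all genes; 16.5% of all tested genes passed. None of the 14 calls was left without either knockout-labelled library, and 22 and 23 of the 24 passed on dropping wild-type library 1 or 2, where 69.3% and 71.0% of all tested genes did. Among kinases and receptors, Jak2, the kinase bound to the prolactin receptor, rose from 3.53 and 6.73 FPKM to 21.3 and 23.5 FPKM (1.98, SE 0.34; limma, adjusted p = 0.040). Ghr, the growth hormone receptor and a relative of Prlr, fell from 8.22 and 7.58 FPKM to 1.28 and 1.65 FPKM (-1.86, SE 0.23; adjusted p = 0.029), and the epithelial scaling gave 0.35. Receptor and kinase of the prolactin pathway thus differed in opposite directions in the deposited values. Nr3c1, the glucocorticoid receptor, which acts with Stat5 at milk genes, rose by 1.73 (SE 0.29; adjusted p = 0.039). Tnfsf11, the RANK ligand gene, was listed at 0 and at 0.247 FPKM in the wild-type pair and was at 4.98 and 4.85 FPKM in the knockout-labelled pair (2.41, SE 0.22; adjusted p = 0.024); it entered the test only through the knockout-labelled pair. The hormone receptor genes Pgr and Esr1 stayed under 0.5 FPKM in every library and were not tested.

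The nuclear factor I genes, whose proteins bind milk gene promoters, were lower in the deposited values of the knockout-labelled pair, but under the epithelial scaling none passed (Nfib -0.0087, Nfia -0.29 and Nfic 0.16). Nfib fell from 8.67 and 7.07 FPKM to 1.05 and 1.02 FPKM (-2.12, SE 0.23; limma, adjusted p = 0.025). Nfic fell by 1.87 (SE 0.22; adjusted p = 0.028) and Nfia by 1.09 (SE 0.17; adjusted p = 0.035). Nfia and Elf5 entered the test only through the wild-type pair. Bcl2l1, a survival gene, fell by 1.18 (SE 0.19; adjusted p = 0.038), and the epithelial scaling gave 1.60; its call also ended with a common total (0.053). Elf5, the alveolar transcription factor that prolactin induces, was at 14.7 and 5.65 FPKM against 0.895 and 0.990 FPKM (limma, adjusted p = 0.052, and 0.048 with a pseudocount of 0.1 or 0.5). Ccnd1, cyclin D1, fell by 2.08 and Cebpb, a factor of milk gene expression, by 0.98 (adjusted p = 0.044 and 0.041), and the epithelial scaling gave 0.073 and 1.99. With a plain prior the Cebpb call ended (0.058); Elf5, Ccnd1 and Cebpb are named after their values were seen. Each of these calls ended without either knockout-labelled library. The epithelial genes were lower in the same libraries, but 10 of the 11 did not pass. Their part in these differences was not tested.

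Of 7 genes listed as inhibitors of Stat5 signalling, Cish among them, 2 rose, 2 fell and 3 did not pass, where 9.51% of all tested genes rose and 6.99% fell. Socs1, a Jak inhibitor induced by cytokines, rose from 6.16 and 15.8 FPKM to 87.5 and 92.7 FPKM (3.05, SE 0.47; limma, adjusted p = 0.036). Socs2, which limits growth hormone and prolactin signals, fell from 20.1 and 16.2 FPKM to 4.98 and 4.52 FPKM (-1.73, SE 0.23; adjusted p = 0.030), and the epithelial scaling gave 0.91. Cish and Socs2, both feedback inhibitors, thus differed in opposite directions in the deposited values. Cav1, caveolin-1, which holds back Jak2 in mammary cells, fell from 28.7 and 50.4 FPKM to 3.01 and 3.16 FPKM (-3.26, SE 0.34; adjusted p = 0.025), but did not pass under the epithelial scaling (-0.64, SE 0.95; adjusted p = 0.54). Socs3 was at 23.7 and 93.2 against 150 and 158 FPKM (limma, adjusted p = 0.17). The phosphatase genes Ptpn1 (29.8 and 40.3 against 39.7 and 42.7 FPKM) and Ptpn11 (3.67 and 3.61 against 3.28 and 3.36 FPKM) had adjusted p of 0.48 and 0.74. The calls of Socs1, Socs2 and Cav1 ended without either knockout-labelled library. Lymphocyte and neutrophil markers were in sum higher in the knockout-labelled pair too. Their part in the differences of Socs1 and Cish was not tested.

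**Figure D4:**
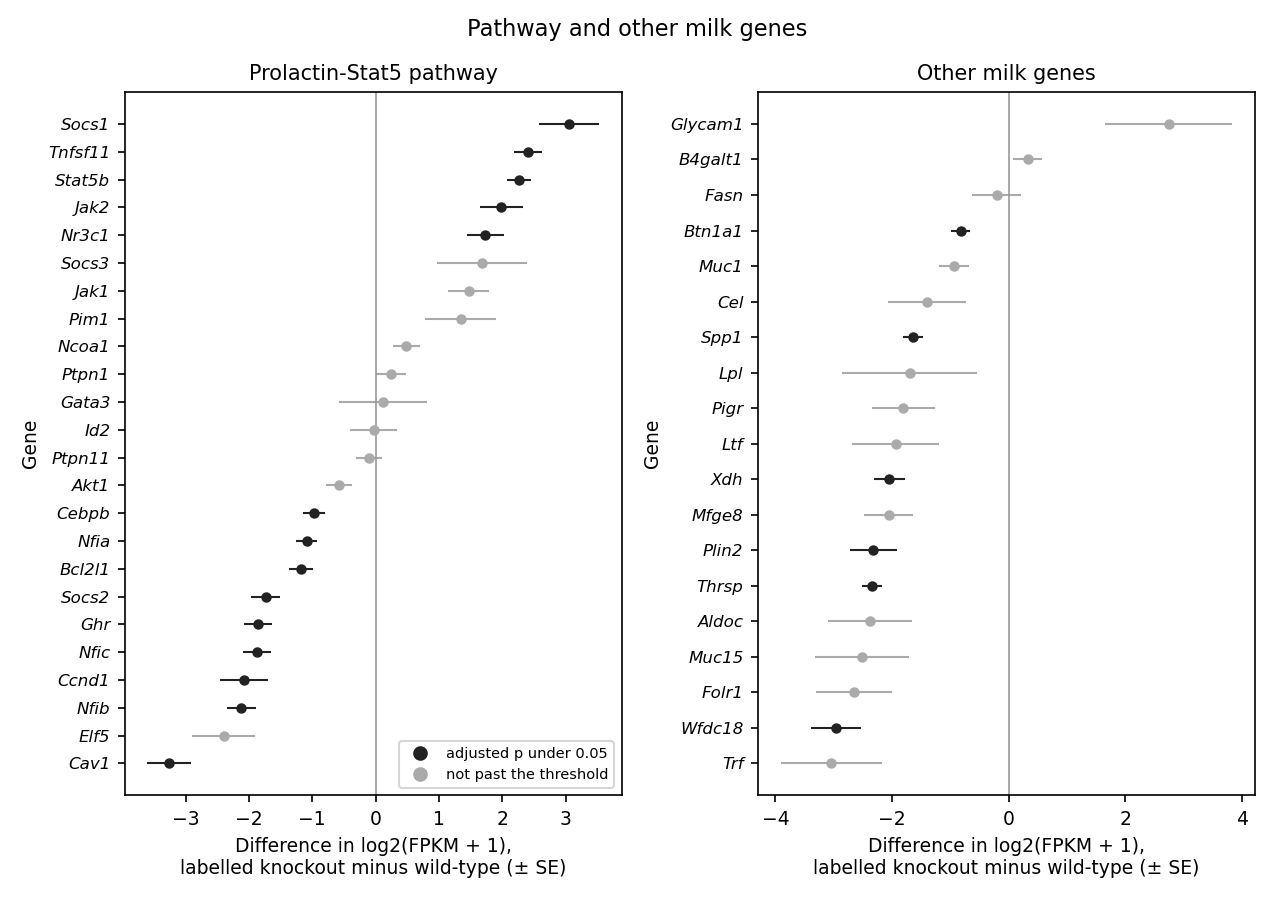
Differences in log2(FPKM + 1), labelled knockout minus wild-type, with SE bars, of the 24 tested pathway genes (left) and 19 tested other milk genes (right); black points passed an adjusted p of 0.05 and grey points did not. The pathway genes spread to both sides, while 17 of 19 milk genes lie below 0. Most of these rise above 0 when libraries are scaled to the epithelial genes. The median of the 19 is then 0.54, against 2.43 over all tested genes.

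Other genes of milk secretion followed Lalba more than Csn2 in direction. Of 25 listed, 19 were tested. Of these 6 fell, none rose and 13 did not pass, with 17 lower and a median difference of -1.94. Under the epithelial scaling the median was 0.54, against 2.43 over all tested genes. With that scaling 3 of the 19 passed, all higher, against 74.5% of all tested genes. The next values are again without it. Over all tested genes 6.99% fell and 9.51% rose. Wfdc18, a secreted WAP-domain protein, fell from 6417 and 2917 FPKM to 555 and 555 FPKM (-2.96, SE 0.42; limma, adjusted p = 0.033), and the epithelial scaling gave 0.015. Thrsp, a regulator of milk fat synthesis, fell from 58.9 and 57.8 FPKM to 10.7 and 10.6 FPKM (-2.35, SE 0.18; adjusted p = 0.024), where that scaling gave 0.49. Xdh and Btn1a1, which coat the milk fat globule, fell by 2.05 and 0.82 (adjusted p = 0.030 and 0.048), and the scaling gave 0.45 and 0.54; Btn1a1 entered the test only through the wild-type pair. Plin2, the coat protein of lipid droplets, and Spp1, osteopontin, fell by 2.32 and 1.64 (adjusted p = 0.041 and 0.025), and the scaling gave 0.64 and 1.33. These 6 calls were lost without either knockout-labelled library, and 18 and 17 of the 19 passed on dropping wild-type library 1 or 2, where 69.3% and 71.0% of all tested genes did. Btn1a1 also failed with pseudocounts of 0.1 and 0.5 (adjusted p = 0.065 and 0.0504), with a common total (0.055) and with a plain prior (0.058), and Plin2 with a common total (0.051).

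Some milk genes that did not pass had a wide wild-type pair. Trf, transferrin, was at 6009 and 1144 FPKM in the wild-type pair and at 327 and 308 FPKM in the knockout-labelled pair (limma, adjusted p = 0.087). Its ratio to the epithelial genes was 17.2 and 13.7 against 15.2 and 14.1, so the 4 libraries lay close together, as for Csn3. Folr1, a folate receptor, was at 70.0 and 20.3 against 5.47 and 4.93 FPKM (limma, adjusted p = 0.068), with ratios of 0.200 and 0.243 against 0.255 and 0.225. Mfge8, a milk fat globule protein, had a difference of -2.06 (adjusted p = 0.051) and Muc1, the luminal mucin, one of -0.94 (adjusted p = 0.080), with 0.89 and 1.50 under the epithelial scaling. Glycam1, a prolactin-responsive milk mucin, was higher in the knockout-labelled pair, as Csn2 was: it was listed at 0 in the first wild-type library, was at 6.89 FPKM in the second, and at 19.5 and 16.2 FPKM in the knockout-labelled pair (2.74, adjusted p = 0.15; named after its values were seen). It passed on dropping wild-type library 1 (1.25) or 2 (4.23).

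The genes nearest to Csn2 and Lalba in pattern were sought by the distance between their log2(FPKM + 1) values over the 4 libraries, each centred on its own mean, among 10523 tested genes. Nearest to Csn2 were Spn (distance 0.14; 0.0592 and 0.835 FPKM in wild-type, 7.03 and 5.67 FPKM in the knockout-labelled pair), Cdc25b (0.20) and Prkch (0.24; 8.22 and 13.8 against 62.2 and 56.7 FPKM). Nearest to Lalba were Anxa3 (0.15; 132 and 90.8 against 17.7 and 15.995 FPKM), Mpzl1 (0.17) and Nfix (0.17; 17.7 and 10.8 against 1.80 and 1.47 FPKM). The epithelial scaling gave differences of 0.27 for Anxa3, 0.16 for Mpzl1 and -0.11 for Nfix. Spn entered the test only through the knockout-labelled pair. The log2(FPKM + 1) scale understates changes at low levels such as those of Spn and Cdc25b. In mean FPKM the knockout-labelled pair was 14.2-fold above wild-type for Spn, 8.78-fold for Cdc25b and 5.41-fold for Prkch, against 5.21-fold for Csn2. Over 4 libraries many genes can lie this near, and the distances are a description.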

How the data were processed

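RNA of the sorted cells was sequenced from low-input SMARTer mRNA libraries, per the labels' protocols. The authors' deposited table gives 1 FPKM value per gene and library; its header names no unit, which was read from the values. The submitters' processing notes name the build mm9, while for aligner, counting tool and annotation none is given in the sources used here. Read totals are unknown.

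Of 24043 rows, 92 spike-ins, all at 0, were left out. Groups came from the titles. The 11138 genes that reached 1 FPKM in 2 or more libraries were fitted on log2(FPKM + 1) by limma 3.58.1 (R 4.3.3), using a trended, robust prior and genotype as the sole term, and p-values were adjusted by Benjamini-Hochberg over all of them. The fit was tested on simulated data. As 1 of the alternatives, each library was scaled to a common geometric mean of 11 epithelial genes. An exact permutation test of 2 against 2 libraries has 3 splits and reaches p = 0.33 at best. Of the marker symbols 1 was found under an older name and 2 had no row. The members and lists were chosen with earlier results of these data known. Named were the 10 genes, Kdm1a, called genes of the pathway and milk lists (up to 8 by lowest p) with the 4 next, and 7 genes listed as Stat5 inhibitors. Other names are marked. Promoters came from RefSeq (GRCm38.p6), matched by symbol.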

Additional observations from a re-analysis of the deposited data

How the results depend on the processing

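The counts of calls moved with the filter, the libraries, the replicate block and the scaling to epithelial genes. With no filter 2 of 17257 genes passed, and 0 of the 10 genes (7 at an unadjusted p under 0.05), 0 pathway genes (18) and 0 other milk genes (16). Leaving out 1 library gave 0 to 7912 genes in all, 0 to 9 of the 9 tested members, 0 to 23 pathway genes and 0 to 18 other milk genes; each 0 came from leaving out a knockout-labelled library, and the lone library was then taken to vary like the wild-type pair. Same-numbered libraries did not deviate together (r = -0.062 across genes). With 2 libraries per group and unlike wild-type libraries, this value cannot decide whether they share more than a number. With the replicate block 501 genes passed, 2 of the members, 4 pathway genes and 4 other milk genes.

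Scaling to the epithelial genes gave 8297 calls (8281 higher and 16 lower, against 1059 and 778) and 3 other milk genes, all higher. It reversed Csn3 (0.039), Lalba (0.28), Prlr (0.19), Wap (2.01), Kdm1a (2.19), Anxa3 (0.27), Bcl2l1 (1.60), Btn1a1 (0.54), Ccnd1 (0.073), Cebpb (1.99), Folr1 (0.11), Ghr (0.35), Mfge8 (0.89), Mpzl1 (0.16), Muc1 (1.50), Nfic (0.16), Plin2 (0.64), Ptpn11 (2.08), Socs2 (0.91), Spp1 (1.33), Thrsp (0.49), Wfdc18 (0.015) and Xdh (0.45). A reversal here is a change of sign only, and of these genes Ptpn11 alone passed (SE 0.66, limma, adjusted p = 0.0040). The SE was 1.37 for Csn3, 1.21 for Lalba and 1.44 for Wfdc18, each larger than the difference. Under this scaling the median difference of all tested genes was 2.43. Wap also reversed without the first wild-type library (0.33, against -2.03 without the second). Under the epithelial scaling the calls of Cav1 (-0.64), Nfia (-0.29), Nfib (-0.0087) and Nfix (-0.11) ended. The pseudocounts of 0.1 and 0.5, the filter at 5 FPKM, a common total, median centring, quantile normalization and a plain prior left 5 member calls each. Where a call or sign changed with the scaling or the block, the cause was not tested. Genes under about 1 FPKM, such as Csn1s2b, rest on few reads.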
